A study of Mus musculus with 4 samples.

Results

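Cluster 2 was 1 of 13 clusters into which the authors had divided single luminal epithelial cells of the mouse mammary gland. Its members were the cells that carry the cluster number 2 in the deposited table, where they share the class label luminal progenitor with cluster 1. There were 919 such cells of 32439 in all, and they are called cycling luminal progenitors here because markers of proliferation and of luminal progenitors were both present, as shown next. Cluster 1, the other luminal progenitor cluster, held 5385 cells. Clusters 5 and 6, which also carried proliferation transcripts and have the class label mature luminal, held 1484 and 1802 cells.

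Cells came from the thoracic and abdominal glands of 6-week-old C57BL/6N mice of genotype ErbB3+/+;MMTV-Cre (WT) or ErbB3V943R/V943R;MMTV-Cre (mutant). Both genotypes carried the MMTV-Cre transgene, which drives recombination from a mouse mammary tumor virus promoter, so the V943R allele was the labelled difference. For each genotype the glands of 3 mice went into 1 pool. After digestion and a step that enriched epithelium, luminal cells were isolated by flow sorting. From these cells, 2 libraries per genotype were made on the 10x 3' platform. The libraries, named WT A, WT B, mutant A and mutant B, are therefore repeat libraries of 1 pool each. No test between genotypes was possible, and none was made between clusters, which were drawn from the same values. Cluster 2 had 273 cells in WT A, 206 in WT B, 215 in mutant A and 225 in mutant B. Its 3996649 unique molecular identifiers (UMIs, counted transcript molecules) gave a median of 3641 UMIs and 2020 genes per cell, against 1854 and 1140 in cluster 1, 5254.5 and 2398 in cluster 5, and 5098 and 2405.5 in cluster 6. Of the 919 cells, 38 carried a barcode that was also present in another library, and no barcode occurred more than once within the cluster.

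Luminal progenitors are hormone receptor-poor cells of the inner duct layer that express the receptor tyrosine kinase gene Kit and give rise to the alveolar, milk-producing lineage. A cell that enters division first turns on genes of DNA replication, many of them through E2F factors, and then genes of G2 phase and mitosis, many of them through the MuvB complex with B-MYB and FOXM1. Promoters of the late genes often hold a CHR element together with CCAAT boxes, and promoters of replication genes often hold E2F sites. ERBB3 is a receptor with an impaired kinase that signals in pairs with other ErbB receptors such as ERBB2.

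Genes of both of these programs were among those that set cluster 2 apart, so 3 promoters of each are shown. They were chosen after the values were seen because they hold the motifs in 1 window of 150 bases. The sequences are from RefSeq (GRCm38.p6), 5′ to 3′ on the strand of the gene, and capitals mark matches to the CHR (TTTGAA), to CCAAT or to E2F letters (TTTCCCGC, TTTGGCGC or TTTCGCGC) on either strand. No motif contains another. Ube2c, Cdc20 and Kif11 act in mitosis.
Ube2c (chr2:164769779-164769928, plus strand): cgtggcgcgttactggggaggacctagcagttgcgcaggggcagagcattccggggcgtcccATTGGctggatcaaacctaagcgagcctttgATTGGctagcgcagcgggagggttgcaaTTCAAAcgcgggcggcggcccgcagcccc
Cdc20 (chr4:118437344-118437493, minus strand): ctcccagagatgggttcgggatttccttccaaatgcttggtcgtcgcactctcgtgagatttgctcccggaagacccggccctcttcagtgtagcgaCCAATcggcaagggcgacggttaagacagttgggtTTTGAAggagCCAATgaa
Kif11 (chr19:37376232-37376381, plus strand): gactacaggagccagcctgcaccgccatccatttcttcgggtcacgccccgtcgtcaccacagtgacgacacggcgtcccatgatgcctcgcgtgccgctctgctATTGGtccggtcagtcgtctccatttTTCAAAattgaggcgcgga
Pola1, Cdc6 and Mcm5 act in replication.
Pola1 (chrX:93632156-93632305, minus strand): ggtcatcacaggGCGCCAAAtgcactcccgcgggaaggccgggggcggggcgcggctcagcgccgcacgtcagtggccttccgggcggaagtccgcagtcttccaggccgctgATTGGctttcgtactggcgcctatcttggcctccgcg
Cdc6 (chr11:98908001-98908150, plus strand): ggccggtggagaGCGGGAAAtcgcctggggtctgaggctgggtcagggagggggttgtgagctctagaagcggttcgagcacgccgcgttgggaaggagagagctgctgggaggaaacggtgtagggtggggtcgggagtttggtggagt
Mcm5 (chr8:75109359-75109508, plus strand): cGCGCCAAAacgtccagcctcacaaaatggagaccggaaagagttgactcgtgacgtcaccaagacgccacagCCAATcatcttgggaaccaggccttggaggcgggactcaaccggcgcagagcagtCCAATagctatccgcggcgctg
In windows from 250 bases before to 50 bases after the start, a CHR and a CCAAT were both present in 63.2% of 19 promoters of mitotic kinase and anaphase genes and in 58.6% of 29 promoters of kinesin and spindle genes, against 7.43% of all 19499 promoters. E2F letters were present in 50% of 30 promoters of replication genes, against 5.26% and 6.90% in those mitotic lists and 2.55% of all promoters. None of 13 luminal progenitor promoters held E2F letters, and none held a CHR with a CCAAT. Of 10 milk protein promoters, 10% held a CHR with a CCAAT and 0% held E2F letters. Of 366 promoters of genes called higher than in cluster 1 by the rule below, these shares were 23.2% and 11.2%. Of 270 promoters of genes called lower, they were 4.81% and 1.85%. A match describes the letters of the window and is not evidence of a bound site.

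The 5 markers of the label are described first. They are no independent check of it, because the clusters were drawn from the same values. Levels are CPM, the UMIs of a gene summed over the cells of a cluster and scaled to a total of 1e+06 UMIs, and ratios are log2 ratios of these sums with 95% intervals. All intervals cover counting error only, not the spread between animals. Mki67 (GRCm38 chr7:135689784-135716361, minus strand), which encodes the proliferation antigen Ki-67, was at 263, 278, 249 and 231 CPM in WT A, WT B, mutant A and mutant B. Its level was 17.4 CPM in cluster 1, a log2 ratio of 3.87 (3.66 to 4.08). Top2a (chr11:98992943-99024189, minus strand), the topoisomerase of dividing cells, was at 605, 603, 531 and 651 CPM against 44.4 CPM in cluster 1. The 4 libraries lay close together for both genes, far above cluster 1.

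Csn3 (chr5:87925579-87932665, plus strand), encoding kappa-casein, was at 2483, 2514, 2157 and 2369 CPM in the same order, against 1978 CPM in cluster 1 and 26.1 and 15.9 CPM in clusters 6 and 5. Wfdc18 (chr11:83709015-83711348, plus strand), a whey acidic protein family gene, was at 11446, 10001, 10205 and 10722 CPM, against 13458 CPM in cluster 1 and 173 and 104 CPM in clusters 6 and 5. Kit (chr5:75574916-75656722, plus strand) was at 139, 140, 165 and 185 CPM, below the 266 CPM of cluster 1 with a log2 ratio of -0.76 (-0.88 to -0.63), and far above the 4.51 and 2.53 CPM of clusters 6 and 5. Mki67 was at 161 and 61.9 CPM and Top2a at 470 and 306 CPM in clusters 6 and 5. Of these 4 comparisons, only Mki67 over cluster 5 reached the fold of 2 used below for calls, whereas Csn3, Wfdc18 and Kit passed it over both clusters.

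**Figure D1:**
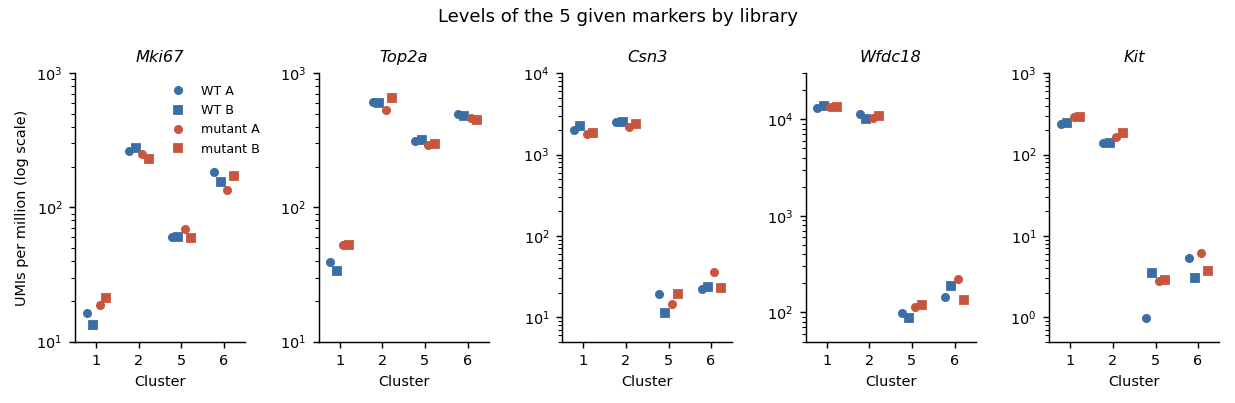
CPM of the 5 markers (log axis) in clusters 1, 2, 5 and 6, with 1 point per library, circles for library A, squares for library B, blue for WT and red for mutant. Mki67 and Top2a of cluster 2 lie with clusters 5 and 6 or above them, whereas its Csn3, Wfdc18 and Kit lie with cluster 1.

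A UMI of Csn3, Wfdc18 or Kit was present in all 919 cells of cluster 2, so the cells with a UMI of Mki67 or Top2a all carried progenitor transcripts as well. These were 756 cells, or 82.3% (79.6 to 84.7), with 81.7%, 84.0%, 79.1% and 84.4% in the 4 libraries. Because progenitor transcripts were in nearly every cell of clusters 1 and 2, the share with both equals the share with Mki67 or Top2a there. In cluster 1 the share with both was 7.30%, in cluster 5 26.9% and in cluster 6 32.3%. After every cell was thinned to 1000 UMIs, which kept 910 of the 919 cells, the shares with both were 52.6%, 2.87%, 2.37% and 4.34% in clusters 2, 1, 5 and 6. Free RNA can add to such shares, and its part was not tested. Wfdc18 had a UMI in 35.3% of cells of cluster 5 and 37.4% of cluster 6, and after thinning in 7.37% and 9.13%, against 99.3% in cluster 2. Kit had a UMI in 46.1% of cells of cluster 2 and 44.6% of cluster 1, and after thinning in 16.4% and 25.1%, which follows the order of the CPM values.

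Against cluster 1, cluster 2 stood apart by genes of cell division. A gene was called between clusters when its CPM differed by a fold of 2 or more, the cluster with more had at least 50 UMIs, and all 4 libraries agreed in direction. Of 12082 genes examined, 494 (4.09%) were higher and 423 (3.5%) were lower in cluster 2, and all genes with 50 UMIs in both clusters together had a median log2 ratio of 0.02 with 80% of them between -0.63 and 0.64. With TMM factors in place of totals the counts were 400 and 571. That change shifted the median of the genes examined from 0.01 to -0.11 against cluster 1, from 0.10 to -0.05 against cluster 6 and from 0.13 to 0.00 against cluster 5.

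Genes of mitosis were the most different group. Kinesin and spindle genes were higher for 32 of 33 members (median log2 ratio 3.92), the exception Kif18a having too few UMIs for the rule. Mitotic kinase and anaphase genes were higher for 22 of 24 (median 3.66), the exceptions being Pttg1 and Wee1 at -0.01 and -0.11. The G2M list of Seurat, a published list of genes of G2 and mitosis, was higher for 53 of 54 (median 3.72). Ccnb1, encoding cyclin B1, had the largest ratio of all genes called. Its 129, 159, 103 and 134 CPM in the 4 libraries compare with 2.88 CPM in cluster 1, a log2 ratio of 5.52 (5.04 to 6.03). Nusap1, a spindle protein gene, was at 349 CPM against 10.2 CPM (log2 ratio 5.09). Plk1, a mitotic kinase gene, was at 126 against 4.09 CPM (4.94), and Ube2c, encoding the E2 enzyme of the anaphase-promoting complex, was at 790 against 26.1 CPM (4.92). Kif2c, Hmmr, Fam83d, Aspm, Kif14 and Kif23, all with products on the spindle or the midbody, followed at log2 ratios of 4.90 to 4.66. As means over cells instead of sums, these ratios were larger, for example 4.88 for Mki67 and 6.25 for Kif14. Birc5 (survivin) and Cenpa (the centromeric histone), the spindle genes with the most UMIs, were at 642 and 617 CPM against 42.3 and 53.5 CPM.

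Condensation genes were higher for 13 of 17 (median 2.18). Among them Hmgb2, a chromatin protein gene, was at 583 against 91.9 CPM and the condensin gene Ncapg at 29.5 against 1.74 CPM. Histone genes were higher for 8 of 14 (median 1.93), with H2afx at 684 against 95.2 CPM and H2afv, a variant that is not tied to S phase, at 1281 against 406 CPM (1.66). Most histone transcripts of S phase lack a poly(A) tail, and the 3' assay primes on poly(A), so these levels do not stand for all histone RNA.

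Replication genes had a lower median ratio than the mitotic lists. Of 40 genes of licensing and the fork, 23 were higher (median 1.16), and all 40 lay above 0. Lig1, the replicative DNA ligase gene, was at 294, 266, 259 and 285 CPM against 116 CPM in cluster 1 (log2 ratio 1.25, 1.14 to 1.36). Gmnn, encoding the licensing inhibitor geminin, was at 260 against 83.7 CPM (1.63) and Mcm10 at 18.5 against 3.64 CPM (2.35). Mcm2, a subunit of the replicative helicase, was at 73.8 against 52.9 CPM (0.48) and was not called. The Seurat S list was higher for 27 of 43 (median 1.18), repair genes for 10 of 16 (median 1.93) and nucleotide synthesis genes for 6 of 16 (median 0.67). Bard1, a DNA repair gene, was at 33.3 against 5.76 CPM (2.53) and Tk1, encoding thymidine kinase, at 186 against 33.2 CPM (2.49). As means over cells the ratios were again larger, at 1.88 for Lig1, 3.55 for Mcm10, 3.45 for Bard1 and 3.27 for Tk1.

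Regulators of entry into the cycle were called in part. Of 20 genes of E2F factors, the DREAM complex and FOXM1, 5 were higher (E2f8, Rbl1, Tfdp1, Lin54 and Foxm1), with Foxm1 at 38.3 against 2.50 CPM (3.94). With TMM factors 3 were higher and 1 was lower. Of 22 genes of G1 cyclins, their kinases and inhibitors, 5 were higher, namely Ccne1, Ccne2, Cdkn2c, Cdkn2d and Skp2. Ccnd1, encoding cyclin D1, was at 1008, 1024, 1054 and 1034 CPM against 823 CPM (0.32, 0.27 to 0.37). Cdk4, the kinase partner of D-type cyclins, was at 600 against 392 CPM (0.62). Rb1, which restrains E2F factors, was at 27.5 against 52.6 CPM (-0.94), and neither was called. None of 20 ribosome biogenesis genes was called (median 0.16), and Ncl, encoding nucleolin, was at 1188 against 1057 CPM.

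**Figure D2:**
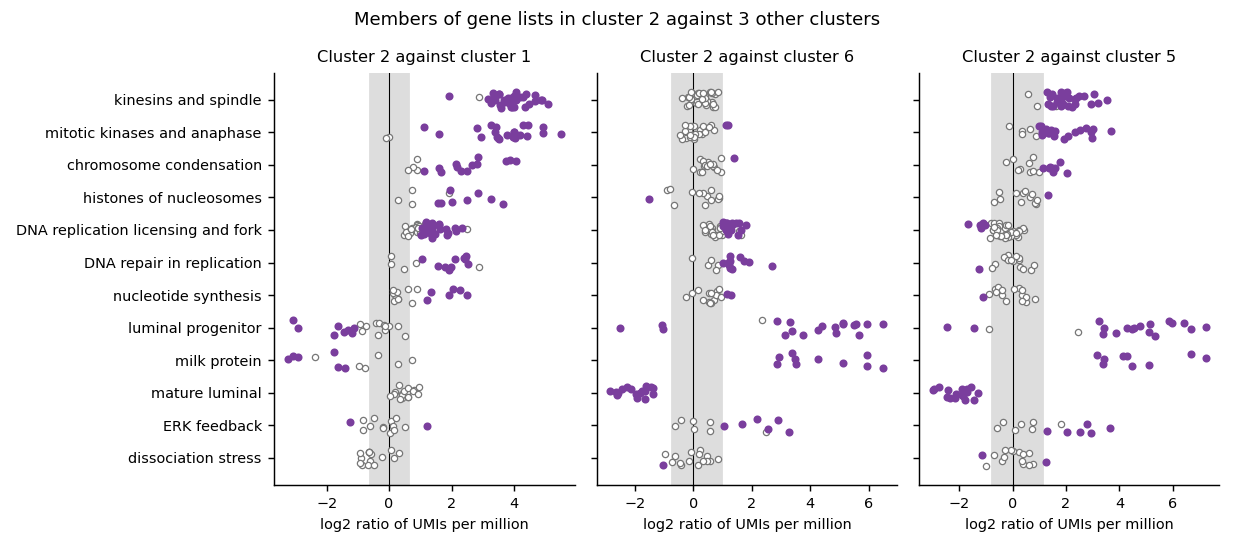
Log2 ratio of CPM in cluster 2 over clusters 1, 6 and 5 for each member of 12 gene lists, filled where past the rule and open where not, with a gray band from the 10th to the 90th percentile of all genes. Against cluster 1 the kinesin and mitotic lists lie farthest to the right, and against cluster 6 all but 2 members of these lists (both among the mitotic genes, up to 1.18) were not called, while most progenitor and milk protein genes lie far to the right.

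Part of the luminal progenitor and milk protein lists was lower than in cluster 1. Of 20 luminal progenitor genes, 8 were lower and none was higher (median -0.81), and 18 lay below 0. They were Aldh1a3, Cd14, Ltf, Mfge8, Trf, Plb1, Cd55 and Btn1a1, most of which encode enzymes, milk or surface proteins. The transcription factor gene Elf5, which directs alveolar fate, was at 249 against 336 CPM (-0.43) and was not called. Of 14 milk protein genes, 6 were lower (median -1.53). Lalba, encoding alpha-lactalbumin, was at 27.7, 31.8, 30.3 and 13.8 CPM against 241 CPM (-3.24, -3.54 to -2.95), and Btn1a1, encoding the milk fat protein butyrophilin, was at 12.5 against 106 CPM (-3.08). Ltf (lactoferrin) was at 295, 212, 142 and 155 CPM against 1534 CPM. Csn3 and Wfdc18, in contrast, were near the level of cluster 1, so the milk protein genes did not move as 1 block. The ranked genes with the lowest ratios were Scara5, Aqp1, Fam169b, Ankrd1, Gabrg3, 4930469K13Rik, Tac1 and Ank, each with only 1 to 3 UMIs in cluster 2 and 58 to 195 in cluster 1. Their log2 ratios of -4.63 to -3.18 ranged from -5.41 to -2.19 when any 1 of the 4 libraries was left out. Where that library held all UMIs of a gene in cluster 2, a floor of 3 UMIs took their place. The weaker end of the range is therefore a bound. Gm13889 was at 2.97, 5.12, 2.16 and 4.60 CPM in the 4 libraries, a log2 ratio of -4.00 (-4.84 to -3.27).

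Few signalling genes were called between the 2 progenitor clusters. Of 15 ErbB receptor and ligand genes 8 had enough UMIs to be examined. None of them was called, and 6 lay below 0 (median -0.28). Etv4, a target of ERK signalling, was higher (19.0 against 8.10 CPM, log2 ratio 1.23) and Dusp5, an ERK phosphatase gene, was lower (48.8 against 116 CPM, -1.25) among 14 ERK feedback genes, whose median was -0.08. Fgfr1 and Met, both receptor tyrosine kinase genes, were lower among 20 genes of progenitor receptors and Notch signalling (4 were lower with TMM factors), with Fgfr1 at 71.8 against 156 CPM (-1.12). Of the 17 genes of that list with enough UMIs, 14 lay below 0 (median -0.28). The list summed to 999 to 1067 CPM in the libraries of cluster 2 against 1439 to 1613 CPM in those of cluster 1. Hey1, a Notch target, was at 166, 180, 146 and 230 CPM against 347 CPM in cluster 1 (-0.93, not called) and was higher than the 3.88 and 3.14 CPM of clusters 6 and 5. Hes1, another Notch target, was at 376 CPM against 523 CPM in cluster 1 and was not called in any of the comparisons. Myb, a factor gene of proliferating cells, was the only 1 of 20 luminal transcription factor genes called, at 20.5 against 7.95 CPM (1.37).

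Markers of other cells and of handling were measured alongside. The 16 dissociation stress genes had a median of -0.65 with none called (3 lower with TMM factors), and their summed level was 17865 to 22275 CPM in the libraries of cluster 2 against 28971 to 36329 in cluster 1. Basal genes were lower for 3 of 12, namely Tagln, Oxtr and Lgals7, with a summed 337 to 373 CPM against 961 CPM in cluster 1. Immune genes summed to 4.1 to 54.5 CPM, the highest in WT A, where Cd74 was at 32.7 CPM against 2.05 to 5.52 in the other libraries, and Ptprc, Cd3e and Cd3g were at 0. Endothelial genes summed to 11.9 to 23.8 CPM with Cdh5, Kdr, Emcn and Esam at 0, fibroblast genes to 10.8 to 19.3 CPM with Col1a2, Lum and Dpt at 0, and erythroid genes to at most 2.8 CPM. Whether stress transcripts or cell depth play a part in the differences from cluster 1 was not tested.

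Mature luminal transcripts were the marker set of another cell type with the highest level. None of 20 mature luminal genes was called against cluster 1, but 17 of 17 with enough UMIs lay above 0 (median 0.49), and 16 of them with TMM factors. Their summed level was 5175, 6045, 5366 and 4808 CPM in the 4 libraries, against 3755 to 4661 in cluster 1 and 25174 and 27982 CPM in clusters 6 and 5. Of the 21309 mature luminal UMIs in the sum, 44.3% came from 58 cells. In the median cell of cluster 2 these genes took 0.176% of the UMIs, less than the 0.229% of cluster 1, whereas these 58 cells (6.31% of the cluster) reached 1.42%, the 5th percentile of cluster 6. They numbered 17, 16, 13 and 12 in the 4 libraries and had a median of 8530 UMIs against 3497 in the other 861. A doublet score, which compares each cell with sums of cells of its library, placed 36 of them in the top 6%, against 38 of the 861 others. Their luminal progenitor genes took a median of 1.06% of UMIs against 2.24% in the others. Without these 58 cells the median log2 ratio of the mature luminal genes to cluster 1 was -0.06 with 6 of 17 above 0, and the counts for the G2M and luminal progenitor lists were 53 of 54 higher and 8 of 20 lower, as with them. The 58 cells were chosen by their mature luminal UMIs and left out of cluster 2 only. The lower median of the mature luminal genes therefore follows from the choice. Whether the 58 cells are pairs of cells in 1 droplet was not tested beyond these scores.

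Cluster 6 had about the same mitotic level but another identity. Of 11259 genes examined, 973 (8.64%) were higher and 823 (7.31%) were lower in cluster 2, with a median over all genes of 0.12 and 80% of them between -0.75 and 0.99. Luminal progenitor genes were higher for 16 of 20 (median 4.34), with Cxcl15, Tfap2b and Krt8 lower. Milk protein genes were higher for 10 of 14 (median 3.88). Mature luminal genes were lower for 17 of 20 (median -1.93). Prlr, the prolactin receptor gene, was at 271, 291, 356 and 327 CPM in cluster 2 against 1113 CPM in cluster 6, and Cited1, a transcriptional cofactor gene, was at 350 against 2082 CPM. Upk3a, a uroplakin gene, was at 740, 1197, 804 and 650 CPM against 6044 CPM (-2.84, and -4.25 without the 58 cells), and the calcium-binding protein gene S100a6 was at 1864 against 7227 CPM. Upk3a is in the list by which the 58 cells were chosen, so its lower ratio without them follows in part from the choice. Cebpb, a transcription factor gene of alveolar differentiation, was higher at 823 against 169 CPM (2.28). By contrast 1 of 54 G2M genes, none of 33 kinesin and spindle genes and 2 of 24 mitotic kinase and anaphase genes (Fbxo5 and Wee1, up to 1.18) were called higher. Their medians were 0.14, 0.28 and 0.02, of which the first and the last were -0.02 and -0.13 with TMM factors. Ube2c was at 790 against 955 CPM (-0.27) and Cdc20, the activator of the anaphase-promoting complex, at 530 against 510 CPM (0.05).

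Replication genes, however, were higher in cluster 2 than in cluster 6, for 17 of 40 (median 0.99, and 11 of 40 with TMM factors). The Seurat S list was higher for 20 of 43 (median 0.99) and repair genes for 11 of 16 (median 1.24). Mcm5 was at 142, 136, 165 and 164 CPM against 50.8 CPM (1.58, 1.41 to 1.74) and Mcm6, another helicase subunit gene, at 218 against 101 CPM (1.12). Of the G1 genes 6 were higher, among them Cdk6 (66.6 against 2.61 CPM) and Ccnd1 (1030 against 504 CPM), and 4 inhibitors or p53 targets were lower, among them Cdkn1a (73.3 against 251 CPM).

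The largest ratios over cluster 6 belonged to genes that cluster 6 nearly lacked. Kcnn4, a calcium-activated potassium channel gene, was at 455, 477, 524 and 534 CPM against 2.34 CPM (7.73, 7.17 to 8.35, and 8.54 without mutant A). G0s2, an inhibitor of lipolysis, was at 129 against 0.721 CPM (7.49) and Gas1, a cell surface co-receptor of hedgehog signalling, at 61.3 against 0.361 CPM (7.41). Chn2, Npas3, Pdzrn3, Plppr4, Slc28a3, P3h2 and C2cd4a had 59 to 122 UMIs in cluster 2 and 1 or 2 in cluster 6. The log2 ratios of these genes, 7.36 to 8.29, ranged from 5.34 to 8.03 when 1 library was left out. The weaker end is again a bound, from the floor of 3 UMIs where cluster 6 was left with none. Among the lowest ratios, those of Dcpp3, Nipal1, Fbp1, Cers4, Grm8, Padi3, Gm34225, Syt8 and Sox15 rested on 1 or 2 UMIs in cluster 2. Their log2 ratios of -6.15 to -3.55 ranged from -6.73 to -2.11 when 1 library was left out. Here too the weaker end is a bound from the floor, where cluster 2 was left with no UMI.

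Cluster 5 showed the opposite balance of the cycle. Of 10539 genes examined, 1164 (11%) were higher and 759 (7.2%) were lower in cluster 2, with a median over all genes of 0.15 and 80% of them between -0.76 and 1.14. The G2M list was higher for 44 of 54 (median 1.72), kinesin and spindle genes for 30 of 33 (median 1.88), mitotic kinase and anaphase genes for 19 of 24 (median 1.40) and condensation genes for 8 of 17. None of 43 S genes was higher and 6 were lower (median -0.31), and of 40 replication genes 5 were lower, namely Mcm2, Mcm3, Cdc6, Orc6 and Gins2. Cdc6, which loads the helicase at origins, was at 12.9, 15.4, 9.74 and 10.1 CPM against 38.4 CPM (-1.68, -2.15 to -1.23), and Ccne1, encoding cyclin E1, at 28.5 against 98.6 CPM (-1.79). Identity genes differed as they did from cluster 6, with 16 of 20 luminal progenitor genes higher (median 4.51), 10 of 14 milk protein genes higher (median 4.37) and 17 of 20 mature luminal genes lower (median -1.90). Csn1s1, encoding alpha-s1-casein, had 88 UMIs in cluster 2 and none in cluster 5, at least 60.8-fold higher against a floor of 3 UMIs over the cluster (5.93 on the log2 scale, and 5.29 without mutant B). Rbp7, a retinol-binding protein gene, was at 460, 467, 560 and 529 CPM in cluster 2, against 2.17 CPM in cluster 5 (7.86) and also against 99.9 CPM in cluster 1 (2.33, 2.23 to 2.43). Ntng1, Sostdc1, Fam83a and Cnmd had 1 UMI each in cluster 5, with log2 ratios of 7.97 to 8.33. These ranged from 6.03 to 8.05 when 1 library was left out, the weaker end being a bound from the floor. Dcpp3, Nipal1, Sbpl and Prr32 were lower, with 1 or 2 UMIs each in cluster 2 and log2 ratios of -7.17 to -4.88. These ranged from -7.95 to -2.89 when 1 library was left out, the weaker end again being a bound. Sbp, a spermine-binding protein gene, was lower, at 7.01 against 222 CPM (-4.98).

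Egfr, Erbb2 and Erbb4 were at low levels throughout, and Erbb3 is described below by genotype. Of the 8 ErbB receptor and ligand genes examined, 1 was higher and 3 were lower than in cluster 6. Against cluster 5, 1 was higher and 4 were lower. Egfr was at 12.5 CPM in cluster 2, 15.8 in cluster 1, 0.451 in cluster 6 and 0.121 in cluster 5, and was called higher than in both of the last clusters. The level in cluster 5 is 1 UMI, with a log2 ratio of 6.70. Leaving out WT A, which held that UMI, put the floor of 3 UMIs in its place. The 4.60 obtained then is a bound. Erbb2 was at 32.5 CPM against 36.7, 45.0 and 32.3 CPM in clusters 1, 6 and 5. Erbb4 was at 5.50 CPM against 9.47 CPM in cluster 1, with 1 UMI in cluster 6 and none in cluster 5. Areg, encoding the EGFR ligand amphiregulin and also a mature luminal gene, was at 370, 482, 642 and 517 CPM against 356 CPM in cluster 1 and was lower than the 3121 and 3839 CPM of clusters 6 and 5. Its log2 ratio to cluster 1 was 0.49 and turned to -0.23 without the 58 cells rich in mature luminal transcripts, and those to clusters 6 and 5 went from -2.64 to -3.36 and from -2.94 to -3.66. Areg is in the list by which those cells were chosen, so these changes follow in part from the choice. ERK feedback genes were higher than in cluster 6 for 6 of 14 (median 1.06) and than in cluster 5 for 6 of 14 (median 1.28), with Phlda1 at 1737 CPM against 231 and 228 CPM.

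Position in the cycle was next described cell by cell. In cells thinned to 1000 UMIs, the S share is the part of the S and G2M list UMIs that came from S genes, for cells with at least 5 such UMIs. Of 910 cells, 905 qualified, with a median of 3 S and 11 G2M UMIs. The S share was below 0.25 in 57.2% (53.9 to 60.5) of cells, from 0.25 to 0.5 in 24.8%, from 0.5 to 0.75 in 14.6% (12.3 to 17.1) and at or above 0.75 in 3.43% (2.34 to 4.83). The last of these was 1.64% after thinning to 2000 UMIs, outside its interval. In cluster 6, where 1677 of 1797 thinned cells (93.3%) qualified, the 4 ranges held 83.1%, 14.6%, 2.15% and 0.179% of the qualifying cells. In cluster 5, where 1230 of 1479 (83.2%) qualified, they held 8.46%, 32.2%, 42.8% and 16.5%. The median S share was 0.188 in cluster 2, 0.100 in cluster 6 and 0.538 in cluster 5. Cluster 2 lay between the other two and nearer to cluster 6. Only 18.3% of thinned cells of cluster 1 had 5 list UMIs. The ranges are stretches of a continuous scale, not cell types, and 130 cells of cluster 2 lay near the limit at 0.25. The lowest range held 56.7%, 61.7%, 58.7% and 52.5% of cells in WT A, WT B, mutant A and mutant B, so the genotypes overlapped. Free RNA can enter these counts, and its part was not tested.

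**Figure D3:**
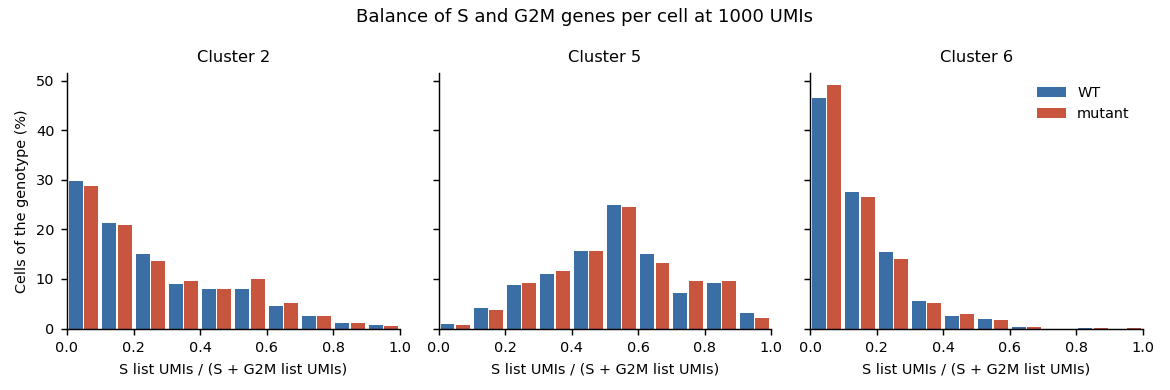
Percent of the qualifying cells of each genotype (blue for WT, red for mutant) at each S share, for clusters 2, 5 and 6 in cells thinned to 1000 UMIs. Cluster 2 has its highest bars at the lowest S shares, as cluster 6 does, with a tail toward the values at which most cells of cluster 5 lie, and the bars of both genotypes have like heights.

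Genes that did not define the S share were then followed along it, leaving out the 58 cells rich in mature luminal transcripts. There were 475 cells below 0.25, 212 between 0.25 and 0.5 and 160 at or above 0.5, with median depths of 3719, 3549.5 and 3160.5 UMIs. Between the outer ranges 86 of 6275 genes (1.37%) were higher and 250 (3.98%) were lower at high S share by the rule used for clusters, of which 59 and 217 were in neither list. This contrast was chosen after the data were seen and is a description only, since genes of 1 cycle phase vary together with the lists. E2f1, a factor gene of S phase entry, was at 15.1, 69.6 and 176 CPM in the 3 ranges from low to high (log2 ratio of the outer ranges 3.55, 2.95 to 4.18). The helicase gene Mcm3 was at 50.6, 160 and 389 CPM (2.94), the licensing gene Cdt1 at 18.5, 63.8 and 135 CPM (2.87) and Lig1 at 150, 413 and 697 CPM (2.22). In the other direction Plk1 was at 177, 74.3 and 18.5 CPM (-3.25), Ccnb1 at 194, 67.3 and 25.9 CPM (-2.90) and Cdkn3, a phosphatase gene of mitotic cells, at 170, 56.9 and 16.7 CPM (-3.35). Kif14 had 52 UMIs in the low range and 1 in the high range (-3.77, -9.10 to -1.23).

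Progenitor transcripts were present along the whole scale. The luminal progenitor genes summed to 20834, 21447 and 23786 CPM in the 3 ranges and the milk protein genes to 15713, 16048 and 18162 CPM, while replication genes went from 2230 to 4836 and 7614 CPM and mitotic kinase and anaphase genes from 5895 to 3334 and 2061 CPM. The last pair of lists shares members with the S and G2M lists that define the scale. The 21 replication genes outside them summed to 1097, 2232 and 3405 CPM, and the 12 mitotic genes outside them to 1695, 1229 and 834 CPM. Csn3 and Wfdc18 are in both the luminal progenitor and the milk protein list, so the sums of those lists are not independent. With Kit, these genes alone summed to 13854, 14027 and 15660 CPM. Ribosome biogenesis genes summed to 4065, 4697 and 5909 CPM. Stress genes summed to 19853, 20431 and 19057 CPM. Of markers of other cell types, mature luminal genes summed to 3699, 3331 and 2215 CPM and basal genes to 284, 493 and 495 CPM, and their part in the differences between ranges was not tested.

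**Figure D4:**
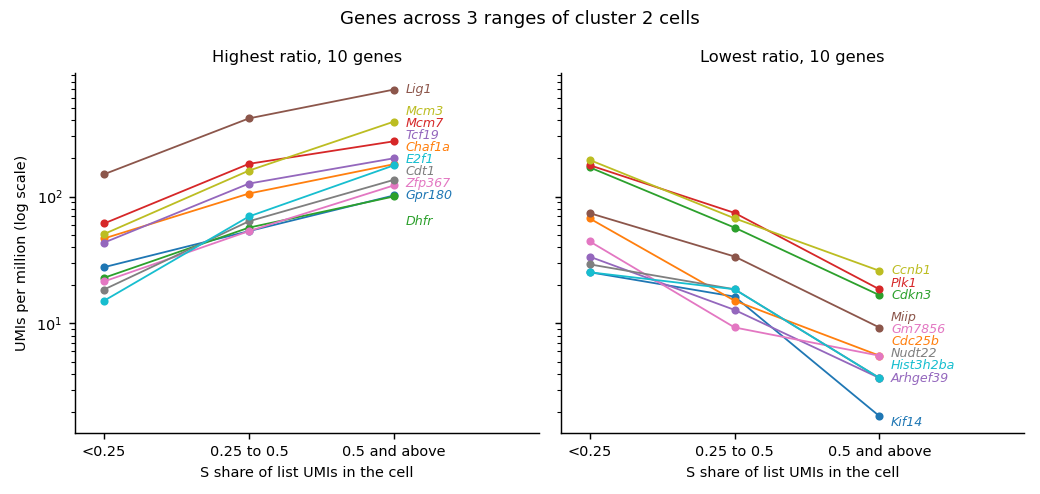
CPM (log axis) of the 10 genes outside the S and G2M lists with the highest and the 10 with the lowest ratio, in 3 ranges of S share within cluster 2 without the cells rich in mature luminal transcripts. E2f1 goes from 15.1 to 176 CPM, and Ccnb1 from 194 to 25.9 CPM. Each point is a sum over the cells of a range, with no error bar.

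The abundance of cluster 2 was compared between genotypes as a share of cells. The 479 WT cells were 2.57% (2.35 to 2.81) of 18638, and the 440 mutant cells were 3.19% (2.90 to 3.49) of 13801. The mutant share over the WT share was 1.24 (1.09 to 1.41). Single libraries gave 2.84% for WT A, 2.29% for WT B, 3.14% for mutant A and 3.24% for mutant B, and the ratio was between 1.12 and 1.39 with any 1 of them left out. The size of this difference depended on what else was counted. When the mature luminal cells of cluster 11 were not counted in the total, the shares were 3.04% and 3.35%, a ratio of 1.10 (0.972 to 1.25), and the libraries overlapped. Among the luminal progenitor cells of clusters 1 and 2, the WT share was 15.1% and the mutant share 14.1% (ratio 0.936, 0.830 to 1.05, and 1.07 without WT A), and both mutant libraries lay between WT B at 13.1% and WT A at 16.9%. Among the cells of clusters 2, 5 and 6 the shares were 21.1% and 22.8%, a ratio of 1.08 (0.962 to 1.21). A share of sorted cells follows the sort and the other clusters as well as cluster 2 itself.

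Within cluster 2 the gene differences between genotypes were few. A gene was called when its CPM differed by a fold of 1.5 or more, the genotype with more had at least 50 UMIs and both mutant libraries lay beyond both WT libraries. Of 6430 genes examined, 115 (1.79%) were higher and 77 (1.2%) were lower in the mutant, with a median log2 ratio over all genes of 0.00 and 80% of them between -0.32 and 0.35. The counts went from 75 to 265 and from 59 to 199 when 1 library was left out. The spread between the 2 libraries of a genotype was small, at 1.32 and 1.35 times the sampling variance (chi-square per degree of freedom) in WT and mutant. Such spread says nothing about mice.

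Erbb3 itself (chr10:128567523-128589652, minus strand) was among the genes lower in the mutant. It was at 64.4 and 64.6 CPM in WT A and WT B and at 30.3 and 25.7 CPM in mutant A and mutant B. The log2 ratio was -1.21 (-1.69 to -0.75) and ranged from -1.32 to -1.09 without any 1 library. In cluster 1 Erbb3 was also called lower, at -0.79, and the difference between these ratios was not tested. It had a UMI in 101 of the 479 WT cells (21.1%) and in 50 of the 440 mutant cells (11.4%, interval 8.55 to 14.7), and after thinning in 7.34% and 1.85%. By the paper's methods, the conditional allele holds a wild-type cDNA cassette with a human growth hormone 3' end, which recombination removes. The part of this design in the 3' counts of Erbb3 was not tested.

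The other genes lower in the mutant were of varied function. Bglap3, an osteocalcin-related gene, was at 140 and 111 CPM in WT and 53.0 and 35.9 CPM in the mutant (-1.52, -1.89 to -1.16), against -0.31 and no call in cluster 1. Irf7, an interferon regulatory factor gene, was at 25.8, 29.7, 11.9 and 10.1 CPM (-1.34). Fgg, encoding fibrinogen gamma, was at 61.4, 92.2, 45.5 and 28.5 CPM (-1.08) and was also lower in cluster 1 (-0.83). The paper names Fgg among the transcripts elevated in a mature luminal cluster whose share fell in the mutant. Whether free RNA from such cells plays a part in these ratios of Fgg was not tested. Rnf19a, Mbip, Spin1, Opa3, Cstf1 and Trmu completed the 10 lowest, at -1.25 to -0.91. Of these Trmu rested most on 1 library, with -1.54 without mutant B and -0.53 without mutant A, which is under the fold of 1.5.

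Several of the genes higher in the mutant had higher levels still in cluster 6. Pcp4, a calmodulin regulator gene, was at 85.2, 74.8, 292 and 169 CPM (1.49, 1.23 to 1.76), and its level was 584 CPM in cluster 6. Igsf5, encoding a junction protein, was at 64.4, 72.8, 215 and 138 CPM (1.34) with 467 CPM in cluster 6. Gsta4, a glutathione transferase gene, was at 32.7, 62.5, 96.3 and 108 CPM (1.11) with 218 CPM in cluster 6. Tmem86a, a mature luminal list gene, was at 38.6, 29.7, 59.5 and 95.6 CPM (1.21) with 173 CPM in cluster 6. Dmbt1 was at 8.92, 15.4, 22.7 and 46.9 CPM (1.57). With the top 6% by doublet score left out, the log2 ratio was 1.18 for Pcp4, 0.82 for Igsf5, 0.46 for Gsta4 and 0.93 for Tmem86a. For Dmbt1 it was then -0.12, and it was 0.91 without mutant B. Without the 58 cells rich in mature luminal transcripts the ratios were 1.09 for Pcp4, 0.97 for Igsf5, 1.02 for Gsta4, 1.42 for Tmem86a and 1.75 for Dmbt1. The mutant over WT ratios of these genes in clusters 1, 5 and 6 are not reported here. Pcp4 and Igsf5 lie near each other on chr16, at 96467606-96525793 and 96361668-96422121. Whether transcripts of mature luminal cells play a part in these ratios was not tested. Klk10, a kallikrein peptidase gene nearly absent from clusters 5 and 6, was at 12.9 and 8.20 CPM in WT and 36.8 and 26.7 CPM in the mutant (1.57, 0.83 to 2.35) and was also called in cluster 1 (0.63). Lipa, encoding lysosomal acid lipase, was at 12.9, 6.15, 27.1 and 25.7 CPM (1.46, and 2.10 without WT A). Rps19-ps12, Rpl26-ps4 and Rpsa-ps10 (1.14 to 1.11) are ribosomal protein pseudogenes, as were 11 of the 115 genes, and reads of such copies can be shared with the parent gene. In all, 34 of the 115 higher and 2 of the 77 lower genes were pseudogenes or models without a gene name. The share of such genes among all genes examined was not counted, so these numbers cannot tell whether such genes are enriched or not. Of the 115 higher genes, 113 were examined in cluster 1 too, and 13 of them passed the same rule there, as 2.16% of all genes did. In cluster 6 the count was 13 of 111 beside 2.11% of all genes, and in cluster 5 it was 12 of 109 beside 1.95%. Of the 77 lower genes, 5 of 76, 4 of 69 and 3 of 64 passed in clusters 1, 6 and 5, beside 0.751%, 1.19% and 1.09% of all genes. No test was made of these overlaps.

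**Figure D5:**
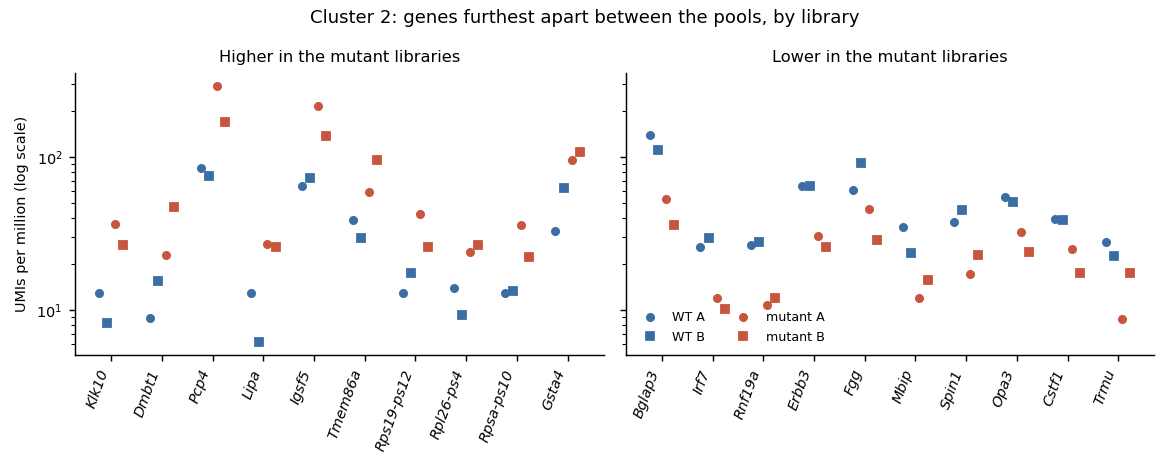
CPM in cluster 2 by library (circles for A, squares for B, blue for WT and red for mutant) of the 10 genes with the highest and the 10 with the lowest ratio of mutant over WT past the genotype rule. For each gene both mutant points lie on 1 side of both WT points, and Erbb3 lies at 64.4 and 64.6 CPM in WT and at 30.3 and 25.7 CPM in the mutant.

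Cell cycle genes were next compared between genotypes, beside the 1.79% of all genes called higher and 1.2% called lower. None of 54 G2M genes was called (median -0.05), and of 43 S genes only Pcna was, with 0.62 (higher). None of 33 kinesin and spindle genes and none of 24 mitotic kinase and anaphase genes was called (medians -0.06 and -0.03). Of 14 histone genes Hist1h2ae and Hist1h2ap were higher, the latter at 24.8, 9.22, 29.2 and 32.2 CPM (0.85, and 1.74 without WT A). Kit was at 139, 140, 165 and 185 CPM (0.33) and was not called. Among 20 luminal progenitor genes Ltf was lower (-0.77) and among 20 progenitor receptor and Notch genes Ghr, the growth hormone receptor gene, was higher (0.71). None of 14 ERK feedback genes was called (median -0.14). The stress list moved with genotype, at 22207 and 22275 CPM in WT and 18088 and 17865 CPM in the mutant, with 14 of 15 genes below 0 (median -0.26) and Atf3 lower (-0.59). The immediate early genes Fos and Jun were at -0.27 and -0.36 and were not called. Stress was also lower in the mutant libraries of cluster 1 (35734 and 36329 against 28971 and 29180 CPM), and median depth in cluster 2 was 3194 and 3887 UMIs in WT and 3457 and 4124 in the mutant. The part of stress and depth in the differences above was not tested.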

How the data were processed

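Single luminal cells of 2 genotypes were profiled on the 10x Chromium 3' platform (v2) in 4 libraries, 2 from each pool of 3 mice. The deposited table holds a signal that the authors made by multiplying the UMIs of each cell by 1 factor per cell, and it gives the library, barcode, cluster and class of every cell. The submitters' processing notes name CASAVA 1.8, bcl2fastq 2.20, GSNAP 2013-10-10 and the build GRCm38, and the study's methods name Partek Flow and Seurat for the clusters. Annotation matched 52403 of the 52636 genes.

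Each cell's values were divided by its step to recover UMIs. All 60853305 nonzero values lay within 0.02 of a whole number (largest distance 0.00429). The table was kept under the unit signal, so no count model was fitted. UMIs were summed by cluster, genotype and library and scaled to CPM. Median depth by library was 3194 to 4124 UMIs per cell in cluster 2. Intervals of 95% were exact conditional binomial for log2 ratios, Clopper-Pearson for a share and log-normal for the ratio between shares. A zero was set to a floor of 3 UMIs over the group. No cells were removed. Doublet scores were computed per library, and leaving out the top 6% was an alternative.

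Named were the 5 markers, the 4 ErbB receptor genes, the 10 genes with the largest ratio in each direction of each comparison (5 for cluster 5), and, of each of 26 gene lists, the members with the highest and lowest ratio among those with 50 UMIs and the 2 with the most UMIs. Other genes, such as Prlr, Cited1, Mcm5, Cdc6, Ccne1, Cdkn1a, Elf5, Ltf, Pcna, Ghr, Atf3 and the promoters of Kif11 and Pola1, were chosen after their values were seen. Some genes that the rule names are not reported here. The members and lists were chosen with earlier results of these data known. The ranges of S share as a contrast, and leaving out cells rich in mature luminal transcripts, were also chosen after the data were seen.

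Other alternatives were TMM factors, minimums of 20 and 100 UMIs, means over cells, no rule on libraries, leaving out each library or the 10% of cells with the fewest UMIs, and thinning to 500 or 2000 UMIs. Scripts were tested on simulated data. Python 3.11.15 was used with matplotlib 3.10.9, scikit-learn 1.9.0, scipy 1.17.1, pandas 2.3.3 and numpy 2.4.6.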

Additional observations from a re-analysis of the deposited data

Results flagged for a closer look

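For 7 of the 95 named genes examined in both clusters (7.37%), both mutant libraries lay on 1 side of both WT libraries in cluster 2 and on the opposite side in cluster 1, which held for 297 of all 6367 genes examined in both (4.66%). None of these differences between clusters was tested. The log2 ratio of mutant over WT for Mki67, the proliferation marker, was -0.18 in cluster 2 and 0.45 in cluster 1. Nusap1, a spindle gene, was at -0.094 and 0.65, and Ube2c, which acts in anaphase, was at -0.16 and 0.20. Ccnd1, encoding cyclin D1, was at 0.038 and -0.10. The ERK phosphatase gene Dusp5 was at 0.20 and -0.11, the basal gene Lgals7 at -0.12 and 0.05, and Trmu, which encodes an enzyme that modifies mitochondrial tRNA, at -0.91 and 0.13. Except for Trmu, these ratios in cluster 2 were below the fold of 1.5 used for calls.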

How the results depend on the processing

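With 1 pool per genotype, no setting gives an error over mice, and depth limits genes with few UMIs. No paired analysis was possible because no result comes from a test, and the table names its libraries by letter, not by the replicate numbers of the labels. A minimum of 20 UMIs gave 679 genes lower than in cluster 1 and, between genotypes, 407 higher and 321 lower. A minimum of 100 UMIs gave 642 genes higher than in cluster 6, 761 higher than in cluster 5, and 36 higher and 19 lower between genotypes. Leaving out 1 library gave 75 to 265 genes higher and 59 to 199 lower in the mutant. The highest count of higher genes came without WT A and the lowest without mutant A, with 193 without WT B. The highest count of lower genes came without mutant B, with 151 without mutant A. Of the 115 higher genes, 98, 75, 33 and 40 were shared without WT A, WT B, mutant A and mutant B, and of the 77 lower genes 27, 21, 54 and 54. The mutant over WT ratio of the share of progenitors in cluster 2 ranged from 0.833 to 1.07. The percent of cells with an S share of 0.75 or more was 1.64 after thinning to 2000 UMIs. Dmbt1 turned to -0.12 without the top doublet scores. The causes were not tested. Of 4053 values tried for single genes, 3502 stayed within the main interval. The sign changed in 178, of which 1, that of Dmbt1, was for a called gene. The others were for genes that were not called, 35 of them outside the main interval, among them Areg against cluster 1. Where a group had no UMIs, means over cells gave no value.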
